A study of Mus musculus with 4 samples.

Results

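Ribosomes are assembled in the nucleolus, where RNA polymerase I transcribes the ribosomal RNA precursor and a large set of proteins and small nucleolar ribonucleoproteins (snoRNPs) cut, modify and fold it. The transcription factor Myc, which binds DNA with its partner Max, is known for raising the expression of many of these genes in growing and dividing cells. In the thymus Myc is best known in cells that divide after the pre-TCR signal, whereas most CD4+CD8+ double positive (DP) thymocytes are small resting cells. The genes described here are *Myc*, *Max* and 45 genes of the nucleolus and of RNA polymerase I, 47 of the 24421 genes listed, chosen by gene symbol and not by their levels.

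Expression was measured by RNA sequencing of CD69+DP thymocytes, DP cells that carry the early activation marker CD69 after a T-cell receptor (TCR) signal, purified by FACS from the thymus of 6-week-old C57BL/6 mice. There were 2 control samples (Foxa1fl/flFoxa2fl/fl CD4Cre-) and 2 Foxa1/2cKO samples (the same floxed alleles with CD4Cre+), so both groups carried floxed *Foxa1* and *Foxa2* and only the Foxa1/2cKO mice carried the Cre transgene, which is driven by regulatory sequence of *Cd4* and so acts in T-lineage cells. Controls were Cre-negative littermates, every sample came from different mice, and whether a sample pooled mice is not given in the sources used here. Values are FPKM, which divide the fragments of a gene by its length and by a divisor for each sample. Ranks of genes by FPKM therefore depend on the length used for each gene. In control 1, *Ncl* had 99.5 FPKM from 12302 reads over 8257 bases. *Npm1* had 276 FPKM there, from 7092 reads over 1718 bases.

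*Foxa1* and *Foxa2*, the deleted genes, were listed at 0 in all 4 samples, so they do not check the genotypes. The total by which FPKM were divided was 14968316 and 13576813 in the controls and 10796528 and 11093927 in the Foxa1/2cKO samples. Of the 4 samples, Foxa1/2cKO 2 stood apart. The first principal component of the 10776 genes tested held 65.2% of the variance, with scores of -7.42, -10.2 and -11.0 in controls 1 and 2 and Foxa1/2cKO 1 and of 28.5 in Foxa1/2cKO 2. The SD over genes of the log2 difference between replicates was 0.198 in control and 0.405 in Foxa1/2cKO. All 11 DP markers were present in every sample, with a summed level of 2903 to 3009 FPKM in the other 3 samples and of 3698 FPKM in Foxa1/2cKO 2. Of these 11, 8 were highest and 1, *Ptcra*, was lowest in Foxa1/2cKO 2. *Ptcra* had 11.2 and 11.9 FPKM in the controls and 7.44 and 3.23 FPKM in the Foxa1/2cKO samples. All 14 cycling markers were lowest in Foxa1/2cKO 2, where their summed level was 333 FPKM, against 805 and 845 FPKM in the controls and 884 FPKM in Foxa1/2cKO 1. *Pcna*, the sliding clamp of DNA replication, was the cycling marker that kept the most, with 88.4 FPKM in Foxa1/2cKO 2 and 144 to 148 FPKM in the other 3 samples. The 7 mature single positive markers summed to 277 to 318 FPKM in the other 3 samples and to 209 FPKM in Foxa1/2cKO 2, with *H2-Q7* listed at 0 in all 4. B cell markers (6 genes) summed to 83.0 and 54.6 FPKM in controls 1 and 2 and to 111 and 58.1 FPKM in Foxa1/2cKO 1 and 2. Myeloid markers (7 genes) summed to 52.2, 29.7, 51.2 and 33.6 FPKM in the same order. Both sums were higher in replicate 1 than in replicate 2 of each group, and neither list was highest in Foxa1/2cKO 2 for any gene. Erythroid markers stayed at 2.73 FPKM or less, with 4 of 7 at 0 (all 4 globins), and the thymic epithelial markers at 10.6 FPKM or less.

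Myc with Max binds the E-box CACGTG, a motif that reads the same on both strands. It was searched in the RefSeq promoters of mm10, from 250 bases before to 50 bases after each start, which covered 41 of the 47 genes. *Myc*, *Fbl*, *Npm1*, *Bop1*, *Rrs1* and *Rrp12* had no entry. At least 1 promoter held the motif in 9 of the 41 genes (22.0%) and in 8.09% of the 27025 genes in the promoter table. The 9 genes were *Max*, *Rrn3*, *Nop2*, *Pes1*, *Mybbp1a*, *Utp20*, *Ltv1*, *Tsr1* and *Wdr43*, with 10 sites, 4 upstream and 6 downstream of the start. Sites are shown for *Max* itself, for *Rrn3*, which had a pair, for *Pes1*, whose motif was nearest the start, for *Nop2*, whose single motif lay farthest upstream, and for the genes with the motif whose fold change was lowest (*Mybbp1a*) and highest (*Utp20*), each as 30 bases of mm10 in the direction of transcription with the E-box in capitals.
Max (chr12:76962234-76962263, minus strand): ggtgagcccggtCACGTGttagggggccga
Rrn3 (chr16:13780472-13780501, plus strand): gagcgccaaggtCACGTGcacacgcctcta
Rrn3 (chr16:13780639-13780668, plus strand): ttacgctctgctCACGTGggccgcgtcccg
Nop2 (chr6:125131811-125131840, plus strand): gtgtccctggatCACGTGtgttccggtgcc
Pes1 (chr11:3963965-3963994, plus strand): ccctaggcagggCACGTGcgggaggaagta
Mybbp1a (chr11:72441347-72441376, plus strand): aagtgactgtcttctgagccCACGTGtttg
Utp20 (chr10:88826765-88826794, minus strand): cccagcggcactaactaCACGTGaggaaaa
The motif began 3 bases upstream of the start in *Max*, 215 and 48 bases upstream in *Rrn3*, 60 bases upstream in *Nop2*, and 2, 40 and 37 bases downstream in *Pes1*, *Mybbp1a* and *Utp20*. A match is a description of these letters and not a binding site. The fold changes of the genes with the motif are given after the results by role.

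All 47 genes were measured well above the filter, with 5.70 to 299 FPKM and 253 to 12302 reads per gene and sample, so that counting error alone was at most 6.29% of any value. Foxa1/2cKO was compared with control by limma on log2(FPKM + 1) across all 10776 genes tested, to ask how the levels of these genes differ between the genotypes. None of the 47 genes passed an adjusted p of 0.05 (Benjamini-Hochberg over all genes tested), a threshold that 0.00928% of the genes tested passed, and their adjusted p were all 0.863 or more. With limma-voom on the recovered reads, 0 passed the adjusted and 3 an unadjusted p under 0.05, all 3 lower, against 2.13% of all genes tested lower and 2.69% higher. An unadjusted p under 0.05 was found for 3 of the 47 genes (6.38%), *Ncl*, *Fbl* and *Nolc1*, all lower in Foxa1/2cKO, against 2.15% of all genes tested lower and 2.39% higher. Both Foxa1/2cKO samples were below both controls in 21 of the 47 genes (44.7%), against 17.8% of all genes tested, and above both in 4 (8.51%, *Taf1d*, *Heatr1*, *Wdr12* and *Noc3l*), against 18.9%. In the remaining 22 genes the groups overlapped. Without Foxa1/2cKO 1, 13 of the 47 genes (27.7%) were lower at an adjusted p under 0.05, against 11.3% of all genes tested, and 19 were lower and 2 higher at an unadjusted p under 0.05, against 17.7% and 21.5%. Without Foxa1/2cKO 2, none passed the adjusted threshold (0.13% of all genes tested were lower at it), and 9 were lower (19.1%) and 2 higher at an unadjusted p under 0.05, against 9.88% and 7.61%. Without control 1 and without control 2, 1 and 0 of the 47 genes had an unadjusted p under 0.05, against 1.08% and 0.677% of all genes tested. When 1 sample of a group is left out, the lone sample is assumed to vary like the other group. In bulk samples, fewer cells that express a gene and less RNA per cell cannot be told apart.

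**Figure D1:**
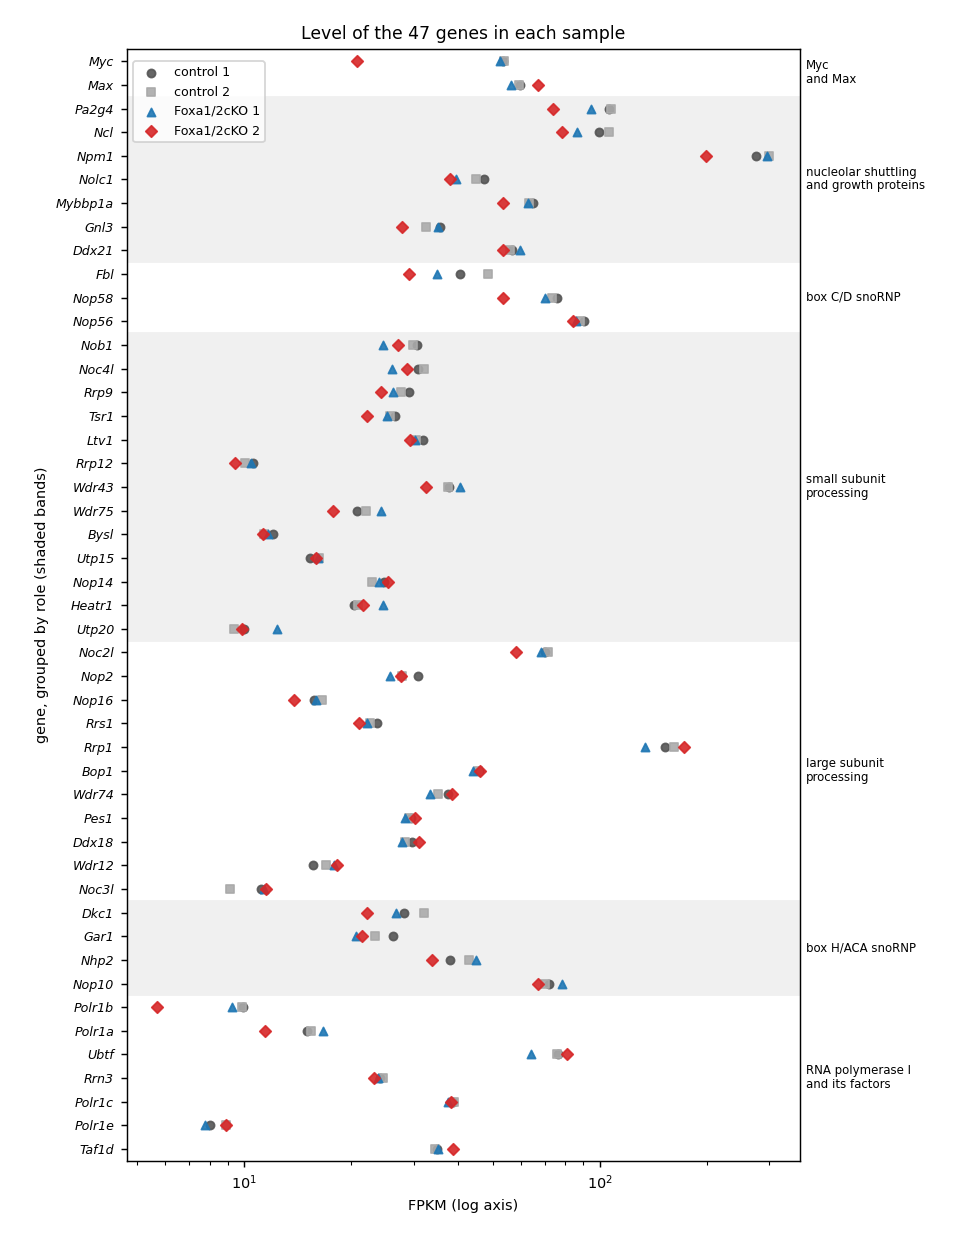
Level of each of the 47 genes in each sample, in FPKM on a log axis, with genes grouped by role in shaded bands and 1 symbol per sample. Foxa1/2cKO 2 (red diamonds) was the lowest sample in 27 of the 47 genes, including all 7 nucleolar shuttling and growth proteins and all 3 box C/D snoRNP genes.

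The log2 fold change was below 0 in 35 of the 47 genes (74.5%), against 48.7% of all genes tested, and the median was -0.065, against 0.0051 over all genes tested. The numbers below 0 were 37 with upper-quartile scaling, 40 with scaling to all recovered reads and 30 after a correction for transcript length, against 51.9%, 57.2% and 44.2% of the genes tested with each. Scaling to all recovered reads put the median of all genes tested at -0.027, and with it 40.5% of all genes past the unadjusted threshold lay above 0, in place of 52.7%. The size was small in many genes, since 23 of the 47 had a log2 fold change under 0.1 in size. Against the mean of the controls, the median over the 47 genes was -0.050 in Foxa1/2cKO 1 and -0.12 in Foxa1/2cKO 2, where the medians over all genes tested were -0.0088 and 0.022. Foxa1/2cKO 1 was below both controls in 29 of the 47 genes and above both in 11, against 40.7% and 36.4% of all genes tested. Foxa1/2cKO 2 was below both in 32 and above both in 12, against 39.6% and 46.3%. In 27 of the 47 genes (57.4%) the lowest of the 4 samples was Foxa1/2cKO 2, against 33.3% of all genes tested. In 31 of the 47 genes the 2 Foxa1/2cKO samples differed from each other by more than the group means did, which was so in 70.4% of all genes tested. The summed level of the 47 genes was 2141 and 2172 FPKM in the controls, 2065 FPKM in Foxa1/2cKO 1 and 1875 FPKM in Foxa1/2cKO 2. The part of the lower cycling markers and of the other differences of Foxa1/2cKO 2 in these values was not tested.

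**Figure D2:**
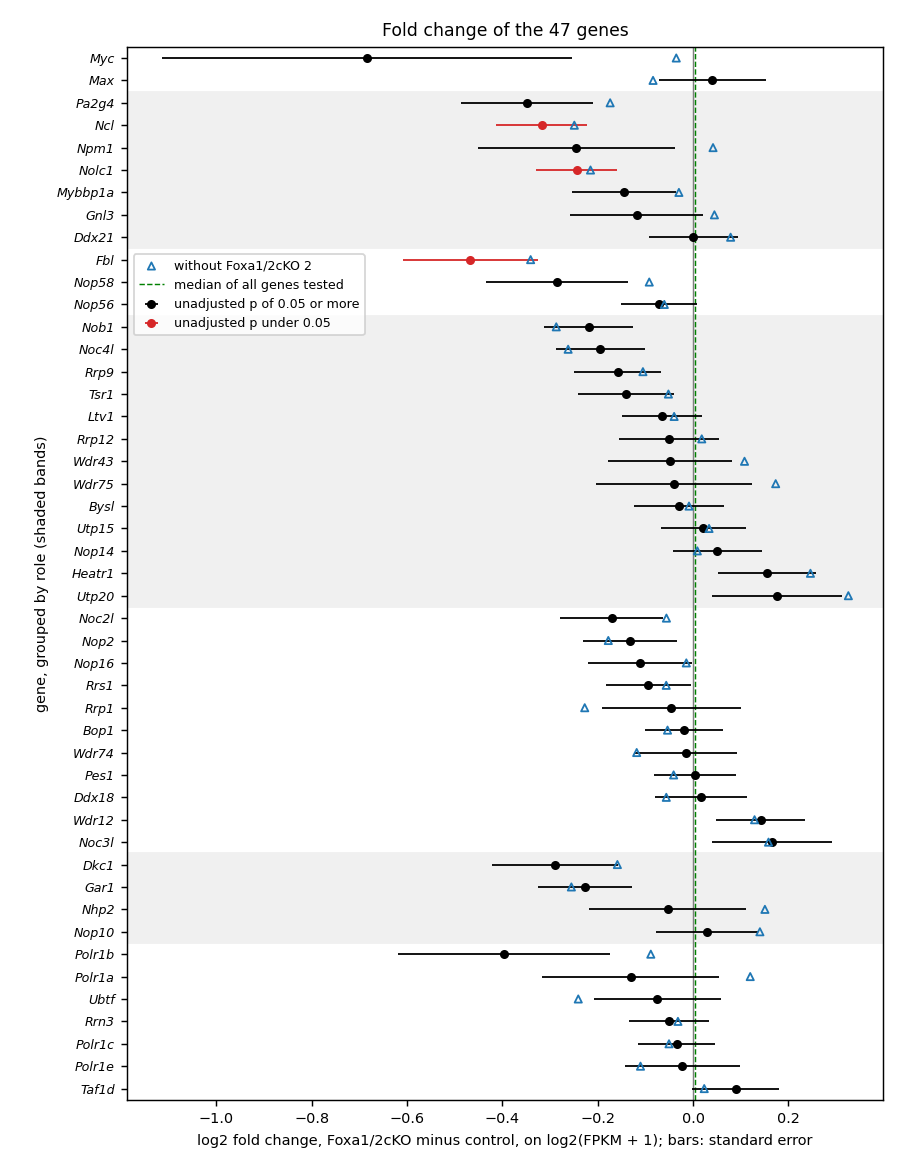
Log2 fold change of each of the 47 genes, Foxa1/2cKO minus control on log2(FPKM + 1), as points with the standard error of the limma fit. Red marks the 3 genes with an unadjusted p under 0.05, open triangles the value without Foxa1/2cKO 2, and the dashed line the median of all genes tested. The value of *Myc* was -0.68 with all samples and -0.035 without Foxa1/2cKO 2.

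*Myc* (chromosome 15, 61985391 to 61990374 in mm10) had 53.5 and 54.0 FPKM in the controls, 52.4 FPKM in Foxa1/2cKO 1 and 20.7 FPKM in Foxa1/2cKO 2, from 1922, 1758, 1358 and 552 reads. The first 3 samples were level, and Foxa1/2cKO 2 alone was low, at 38.6% of the control mean, where Foxa1/2cKO 1 was at 97.5%. The groups did not overlap, but the means of 53.7 ± 0.319 in control and 36.6 ± 22.4 FPKM in Foxa1/2cKO (SD, n = 2 each) differed by less than the spread of the Foxa1/2cKO samples. The log2 fold change of *Myc* was -0.68 ± 0.43 (SE), the most negative of the 47 genes, with an adjusted p of 0.863 (limma). Without Foxa1/2cKO 2 it was -0.035, with an adjusted p of 0.795, and without Foxa1/2cKO 1 it was -1.33, with an adjusted p of 0.000551.

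*Max*, the partner that Myc needs to bind DNA, had 59.9 and 59.5 FPKM in the controls, 56.3 FPKM in Foxa1/2cKO 1 and 67.0 FPKM in Foxa1/2cKO 2. The 2 Foxa1/2cKO samples lay on either side of the controls. The log2 fold change was 0.040 ± 0.11 (SE) and became -0.084 without Foxa1/2cKO 2.

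The genes with the level pattern most like that of *Myc* over the 4 samples, by the root mean square distance of log2(FPKM + 1) after subtracting the mean of each gene, were *Cdk1* (0.00545), *Tnfrsf9* (0.0180), *Ccnf* (0.0271), *Chaf1a* (0.0280) and *Ska1* (0.0324). *Cdk1*, the kinase that drives entry into mitosis and 1 of the 14 cycling markers, had 28.7, 28.9, 28.1 and 10.9 FPKM in controls 1 and 2 and Foxa1/2cKO 1 and 2. *Tnfrsf9*, a co-stimulatory receptor and 1 of 12 TCR response genes listed as markers, had 22.2, 22.7, 22.0 and 8.56 FPKM in the same order. Of those 12 genes, 7 were highest and 3 lowest in Foxa1/2cKO 2. Among the other 46 genes of the set the closest were *Polr1b* (0.281), *Npm1* (0.339), *Pa2g4* (0.374), *Nop58* (0.379) and *Polr1a* (0.395), all at larger distances. These distances rest on 4 samples, of which only Foxa1/2cKO 2 departed from the others for *Myc*.

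**Figure D3:**
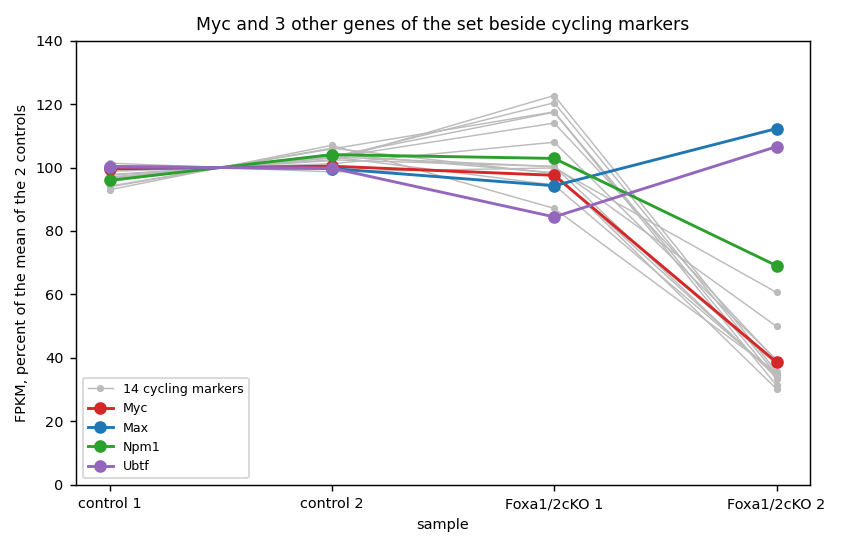
FPKM in each sample as a percent of the mean of the 2 controls, for *Myc*, *Max*, *Npm1* and *Ubtf* (coloured) and the 14 cycling markers (grey). Lines join the values of a gene and give no order to the samples. *Myc* lay among the cycling markers in Foxa1/2cKO 2, at 38.6%, *Npm1* lay above them, and *Max* and *Ubtf* were above 100%.

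The 7 nucleolar shuttling and growth proteins had a median log2 fold change of -0.24. Of the 7, 4 were below both controls in both Foxa1/2cKO samples, against 17.8% of all genes tested. All 7 were lowest in Foxa1/2cKO 2, and the median without it was -0.030. *Ncl* (chromosome 1, 86344719 to 86359400) encodes nucleolin, an abundant nucleolar protein that binds the ribosomal RNA precursor. It had 99.5 and 106 FPKM in the controls and 86.5 and 78.5 FPKM in the Foxa1/2cKO samples. Both Foxa1/2cKO samples were below both controls, and the difference between group means was larger than the spread within either group, with 103 ± 4.92 and 82.5 ± 5.62 FPKM (SD, n = 2 each). The log2 fold change was -0.32 ± 0.095 (SE; limma unadjusted p = 0.0229, adjusted p = 0.863) and was -0.25 without Foxa1/2cKO 2. *Nolc1*, which encodes a chaperone that shuttles snoRNPs to the nucleolus, had 47.4 and 44.8 FPKM in the controls and 39.6 and 37.9 FPKM in the Foxa1/2cKO samples, again without overlap. Its log2 fold change was -0.24 ± 0.085 (SE; limma unadjusted p = 0.0378, adjusted p = 0.863) and was -0.22 without Foxa1/2cKO 2.

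*Pa2g4*, which encodes a growth-regulated protein found on ribosomes and in the nucleolus, had 106 and 108 FPKM in the controls, 94.8 FPKM in Foxa1/2cKO 1 and 74.2 FPKM in Foxa1/2cKO 2. Both samples were below both controls, and Foxa1/2cKO 2 was the lower of the pair. The log2 fold change was -0.35 ± 0.14 (SE; limma unadjusted p = 0.0565, adjusted p = 0.863) and was -0.17 without Foxa1/2cKO 2. *Npm1*, which encodes the nucleolar chaperone nucleophosmin, had the highest FPKM of the 47 genes. Its values were 276 and 299 FPKM in the controls, 296 FPKM in Foxa1/2cKO 1 and 198 FPKM in Foxa1/2cKO 2. Only Foxa1/2cKO 2 was low, and the log2 fold change of -0.24 became 0.042 without it. *Gnl3*, which encodes the GTP-binding protein nucleostemin, was the lowest of the 7, with 35.5 and 32.5 FPKM in the controls and 35.1 and 27.8 FPKM in the Foxa1/2cKO samples, and its log2 fold change of -0.12 became 0.045 without Foxa1/2cKO 2. *Mybbp1a* and the RNA helicase gene *Ddx21* had log2 fold changes of -0.15 and 0.00098, and that of *Mybbp1a* was -0.030 without Foxa1/2cKO 2.

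**Figure D4:**
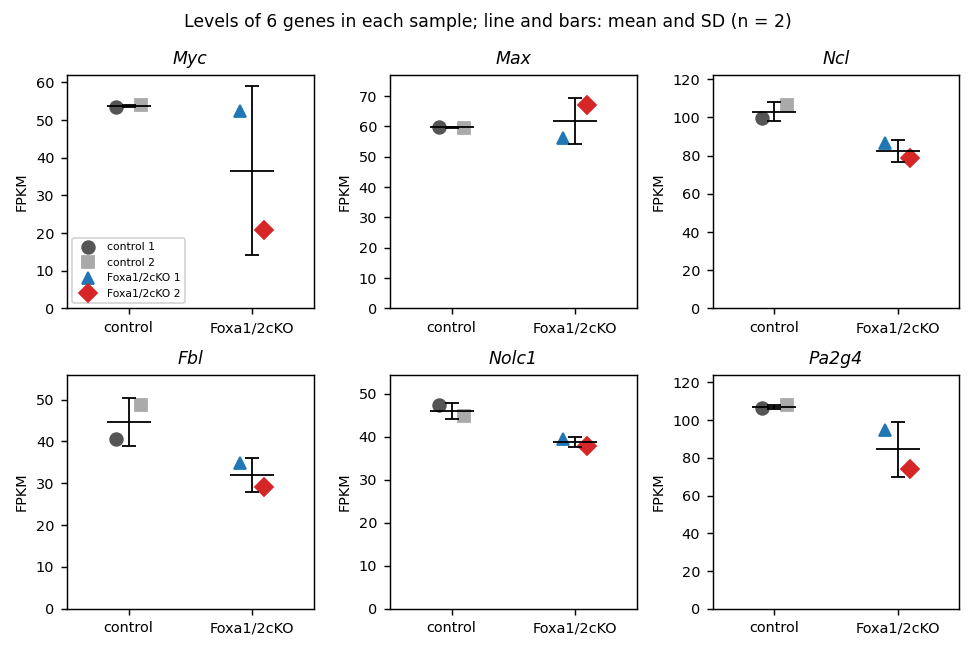
FPKM of *Myc*, *Max*, *Ncl*, *Fbl*, *Nolc1* and *Pa2g4* in each sample, on axes that start at 0, with the group mean (line) and SD (bars, n = 2). *Ncl*, *Fbl* and *Nolc1* were lower in both Foxa1/2cKO samples than in both controls, whereas *Myc* was low in Foxa1/2cKO 2 alone.

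Box C/D snoRNPs add methyl groups to ribosomal RNA. Of their core genes the set held 3, *Fbl*, *Nop56* and *Nop58*. All 3 were below both controls in both Foxa1/2cKO samples, against 17.8% of all genes tested. Their median log2 fold change was -0.29, which was -0.092 without Foxa1/2cKO 2 and -0.48 without Foxa1/2cKO 1. *Fbl* (chromosome 7, 28169710 to 28179269), which encodes the methyltransferase fibrillarin, had 40.5 and 48.6 FPKM in the controls and 34.8 and 29.1 FPKM in the Foxa1/2cKO samples. The groups did not overlap, with means of 44.6 ± 5.72 and 32.0 ± 4.07 FPKM (SD, n = 2 each). The log2 fold change was -0.47 ± 0.14 (SE; limma unadjusted p = 0.0238, adjusted p = 0.863), the second most negative of the 47 genes, and was -0.34 without Foxa1/2cKO 2. *Nop56*, which encodes a core scaffold protein, had 90.6 and 88.0 FPKM in the controls and 85.6 and 84.3 FPKM in the Foxa1/2cKO samples, a log2 fold change of -0.071. *Nop58*, its partner, had a log2 fold change of -0.29, which was -0.092 without Foxa1/2cKO 2.

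Box H/ACA snoRNPs convert uridine to pseudouridine. Of their 4 core genes, 2 were below both controls in both Foxa1/2cKO samples, against 17.8% of all genes tested. Their median log2 fold change was -0.14. The median was -0.0092 without Foxa1/2cKO 2, with 2 of the 4 values above 0, and -0.23 without Foxa1/2cKO 1. *Dkc1*, which encodes the pseudouridine synthase dyskerin, had 28.2 and 32.1 FPKM in the controls and 26.8 and 22.2 FPKM in the Foxa1/2cKO samples, with a log2 fold change of -0.29 ± 0.13 (SE) and of -0.16 without Foxa1/2cKO 2. *Gar1* had 26.3 and 23.4 FPKM in the controls and 20.6 and 21.5 FPKM in the Foxa1/2cKO samples, with a log2 fold change of -0.23 ± 0.099 (SE) and of -0.26 without Foxa1/2cKO 2. For both genes the groups did not overlap, and neither passed an unadjusted p of 0.05. *Nop10*, the smallest core protein, had 72.2 and 70.2 FPKM in the controls, 78.6 FPKM in Foxa1/2cKO 1 and 67.2 FPKM in Foxa1/2cKO 2, so the Foxa1/2cKO samples lay on either side of the controls, and *Nhp2* overlapped as well, with a log2 fold change of -0.054 that became 0.15 without Foxa1/2cKO 2.

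RNA polymerase I and its factors, 7 genes, had a median log2 fold change of -0.050. *Polr1b* (chromosome 2, 129100995 to 129126594), which encodes the second largest subunit, had 9.96 and 9.87 FPKM in the controls, 9.27 FPKM in Foxa1/2cKO 1 and 5.70 FPKM in Foxa1/2cKO 2, the lowest value of any of the 47 genes. As for *Myc*, 3 samples were close and Foxa1/2cKO 2 was low, and the log2 fold change of -0.40 ± 0.22 (SE) was -0.089 without that sample. *Polr1a*, the largest subunit, was also lowest in Foxa1/2cKO 2, but Foxa1/2cKO 1 was above both controls. *Ubtf*, which encodes the factor that keeps ribosomal DNA open for transcription, was the highest of the 7, with 76.2 and 75.9 FPKM in the controls, 64.2 FPKM in Foxa1/2cKO 1 and 81.1 FPKM in Foxa1/2cKO 2. Here Foxa1/2cKO 1 was the low sample, and the log2 fold change of -0.075 became -0.24 without Foxa1/2cKO 2 and 0.091 without Foxa1/2cKO 1. *Taf1d*, a subunit of the selectivity factor that recruits the polymerase, was above both controls in both Foxa1/2cKO samples, with 34.8 and 34.5 against 35.2 and 38.7 FPKM and a log2 fold change of 0.089 ± 0.091 (SE). *Polr1e*, the lowest of the 7 by mean level, had 8.02 and 8.90 FPKM in the controls and 7.75 and 8.89 FPKM in the Foxa1/2cKO samples, and the groups overlapped. *Polr1c*, a subunit shared with RNA polymerase III, and *Rrn3*, which links the polymerase to the promoter, had log2 fold changes of -0.034 and -0.050.

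Small subunit processing, 13 genes, had a median log2 fold change of -0.049, which was 0.0091 without Foxa1/2cKO 2 and -0.12 without Foxa1/2cKO 1. Of the 13 genes, 5 were below both controls in both Foxa1/2cKO samples (*Nob1*, *Noc4l*, *Rrp9*, *Tsr1* and *Ltv1*) and 1 was above both (*Heatr1*). Over all genes tested, 17.8% were below both and 18.9% above both. *Nob1*, which encodes the nuclease that makes the last cut of the 18S ribosomal RNA, and *Noc4l* had log2 fold changes of -0.22 and -0.19, and of -0.29 and -0.26 without Foxa1/2cKO 2. *Utp20* had the most positive value of the 47 genes, with 9.99 and 9.38 FPKM in the controls, 12.4 FPKM in Foxa1/2cKO 1 and 9.88 FPKM in Foxa1/2cKO 2. Only Foxa1/2cKO 1 was high, and the groups overlapped, with a log2 fold change of 0.18 ± 0.14 (SE). *Heatr1*, which encodes an early factor that joins transcription and processing of the precursor, had 20.3 and 20.9 FPKM in the controls, 24.6 FPKM in Foxa1/2cKO 1 and 21.6 FPKM in Foxa1/2cKO 2, with a log2 fold change of 0.16 ± 0.10 (SE). *Wdr43*, the highest of the 13, had 37.6 and 37.5 FPKM in the controls and 40.6 and 32.5 FPKM in the Foxa1/2cKO samples, which lay on either side of the controls. *Rrp12*, the lowest of the 13 by mean level, had 10.6 and 10.1 FPKM in the controls and 10.5 and 9.43 FPKM in the Foxa1/2cKO samples, and *Nop14* had 24.7 and 22.9 against 23.9 and 25.4 FPKM. Both overlapped, with log2 fold changes of -0.051 and 0.051. The other 3 genes, *Utp15*, *Wdr75* and *Bysl*, overlapped too, with values from -0.040 to 0.022.

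Large subunit processing, 11 genes, had a median log2 fold change of -0.018, which was -0.056 without Foxa1/2cKO 2 and 0.050 without Foxa1/2cKO 1, and 3 of its genes were lowest in Foxa1/2cKO 2. *Noc2l*, *Nop2* and *Rrs1* were below both controls in both Foxa1/2cKO samples, with log2 fold changes of -0.17, -0.13 and -0.093, and of -0.056, -0.18 and -0.056 without Foxa1/2cKO 2. *Wdr12* and *Noc3l* were above both. Over all genes tested, 17.8% were below both and 18.9% above both. *Wdr12*, which acts with the products of *Pes1* and *Bop1* in a complex needed for large subunit maturation, had 15.6 and 17.0 FPKM in the controls and 17.9 and 18.3 FPKM in the Foxa1/2cKO samples, a log2 fold change of 0.14 ± 0.093 (SE). *Noc3l* had 11.2 and 9.15 FPKM in the controls and 11.4 and 11.5 FPKM in the Foxa1/2cKO samples, and the controls differed from each other by more than the Foxa1/2cKO samples did. *Pes1* and *Bop1* had log2 fold changes of 0.0045 and -0.018. *Rrp1*, the highest of the 11, had 153 and 162 FPKM in the controls, 134 FPKM in Foxa1/2cKO 1 and 173 FPKM in Foxa1/2cKO 2. The Foxa1/2cKO samples lay on either side of the controls, and the log2 fold change of -0.046 became 0.14 without Foxa1/2cKO 1. The other 3 genes, *Nop16*, *Wdr74* and *Ddx18*, overlapped, with values of -0.11, -0.016 and 0.017, and that of *Nop16* was -0.014 without Foxa1/2cKO 2.

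**Figure D5:**
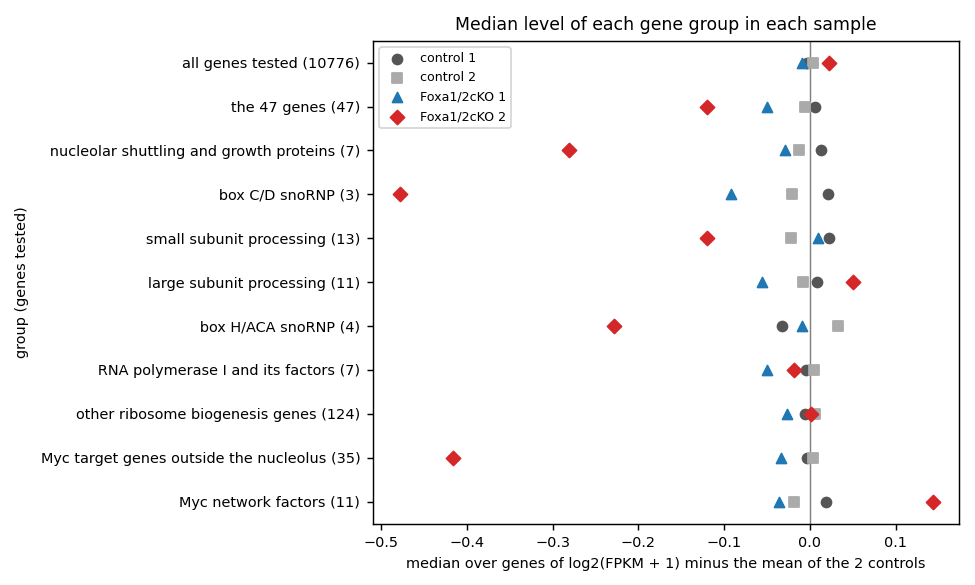
Median over the genes of each group of log2(FPKM + 1) minus the mean of the 2 controls, for each sample, with the number of genes tested in brackets. In Foxa1/2cKO 2 the median was -0.28 for the nucleolar shuttling and growth proteins, -0.48 for the box C/D snoRNP genes and -0.42 for the Myc target genes outside the nucleolus, against 0.022 for all genes tested.

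The 9 genes with an E-box in the promoter had a median log2 fold change of -0.050, from -0.15 (*Mybbp1a*) to 0.18 (*Utp20*), and the 32 genes with a promoter entry and no E-box had a median of -0.062. Of the 9 genes, 6 had a value below 0 and 5 were below both controls in both Foxa1/2cKO samples. Of the 32 genes, 23 and 13 were. The shares over all genes tested were 48.7% below 0 and 17.8% below both controls. *Ncl*, *Nolc1*, *Pa2g4* and *Polr1b* were among the 32 genes without the motif in this window.

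Another 124 genes of ribosome biogenesis, outside the 47, had a median log2 fold change of -0.016, with 65 below and 59 above 0. None passed the adjusted threshold. At an unadjusted p under 0.05, 4 were lower and none higher, against 2.15% lower and 2.39% higher of all genes tested. Both Foxa1/2cKO samples were below both controls in 26 and above both in 16, against 17.8% and 18.9% of all genes tested. The lower genes with the smallest p were *Znhit3*, a snoRNP assembly factor (11.6 and 12.2 against 9.05 and 8.16 FPKM, log2 fold change -0.42), and *Exosc9*, a subunit of the RNA exosome (21.3 and 22.5 against 17.9 and 17.9 FPKM, log2 fold change -0.28). On the higher side they were *Nol8* and *Wdr3*, with log2 fold changes of 0.25 and 0.19. By role, 6 of 8 snoRNP assembly genes and 9 of 12 nuclear exosome genes had a value below 0, as did 20 of 42 small subunit genes, 24 of 48 large subunit genes and 6 of 14 genes of RNA polymerase I.

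Of 14 further factors of the Myc network, 11 passed the filter, and *Mycn*, *Mycl* and *Mlxipl* stayed under 1 FPKM in every sample. None of the 11 passed either threshold, and 6 values were above 0 and 5 below. In both Foxa1/2cKO samples, 2 genes were above and 2 below both controls, against 18.9% and 17.8% of all genes tested. *Mxd3*, a Max partner that represses Myc targets and is known from dividing cells, had 28.5 and 35.2 FPKM in the controls, 30.9 FPKM in Foxa1/2cKO 1 and 11.2 FPKM in Foxa1/2cKO 2. The fold change on the log2 scale, -0.73 ± 0.47 (SE), was -0.036 without Foxa1/2cKO 2, as for *Myc*. *Mga* and *Mxd4*, both Max partners that act as repressors, had 16.4 and 15.9 against 18.6 and 19.6 FPKM and 78.5 and 76.5 against 84.3 and 89.5 FPKM, with log2 fold changes of 0.23 and 0.16 and no overlap between groups. *Pias2*, which had the smallest p among the lower genes after *Mxd3*, had a log2 fold change of -0.15, which was -0.023 without Foxa1/2cKO 2.

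Of 35 known Myc target genes outside the nucleolus, in metabolism, translation and the cell cycle, 34 had a log2 fold change below 0 and 1 above (*Slc3a2*, 0.093), with a median of -0.26. None passed the adjusted threshold. At an unadjusted p under 0.05, 3 were lower and none higher, against 2.15% lower and 2.39% higher of all genes tested. Both Foxa1/2cKO samples were below both controls in 14 and above both in none, against 17.8% and 18.9% of all genes tested. Foxa1/2cKO 2 was the lowest sample in 31 of the 35 (88.6%), and the median was -0.034 without it and -0.42 without Foxa1/2cKO 1. *Nme1*, a nucleoside diphosphate kinase, was low in both Foxa1/2cKO samples, with 84.3 and 92.0 against 72.1 and 68.6 FPKM and a log2 fold change of -0.32 ± 0.091 (SE; limma unadjusted p = 0.0186, adjusted p = 0.863). *Pkm*, the pyruvate kinase of glycolysis, had 258 and 251 against 218 and 173 FPKM and a log2 fold change of -0.39 ± 0.13 (SE; limma unadjusted p = 0.0380, adjusted p = 0.863). *Nme1* and *Pkm* had log2 fold changes of -0.29 and -0.22 without Foxa1/2cKO 2.

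Several of the 47 genes share sequence with other annotated genes, so reads could have been split or lost in counting. More than 10% of the 50-base stretches of the longest transcript were also in another gene for *Ddx18* (62.7%), *Npm1* (40.9%), *Tsr1* (31.1%), *Pes1* (24.1%), *Nop56* (20%), *Noc2l* (19.4%) and *Taf1d* (14%). Exons of 17 of the 47 genes overlap a gene on the opposite strand, and these were *Nop56*, *Nop14*, *Dkc1*, *Nhp2*, *Polr1a*, *Taf1d*, *Bop1*, *Pes1*, *Wdr12*, *Wdr43*, *Heatr1*, *Noc2l*, *Rrp9*, *Gnl3*, *Mybbp1a*, *Tsr1* and *Bysl*. The strand setting of the gene counts is not given in the sources used here, so reads of the 2 genes cannot be told apart there. *Myc*, *Ncl*, *Fbl*, *Nolc1* and *Polr1b* had no such overlap and shared at most 3.37% of their stretches.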

How the data were processed

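RNA of sorted CD69+DP thymocytes was sequenced in 4 samples, 2 per genotype. The authors aligned reads to mm10 with RefSeq genes in BaseSpace, counted them with HTSeq in union mode and tested the counts with DESeq2. Because the histogram of p-values was hill-shaped, they re-estimated the null variance from the z-scores with fdrtool before the adjustment. That step was not made here. TopHat, Picard and DESeq2 are named in the submitters' processing notes. The deposited values are FPKM per gene and sample, and the step from counts to FPKM is not given in the sources used here. The unit was inferred from the values.

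From the step between the values of each gene, whole reads were recovered for 100% of the 16069 genes above 0 (tolerance 0.02 of a read). The smallest reads that gave a whole gene length were taken, so reads of a gene can be too low by a common factor. This may be so for *Nop14*, with a recovered length of 1351 bases and a longest transcript of 2702 bases. Reads of very high genes are approximate. The divisors of the FPKM were 10796528 to 14968316, and relative depths 0.864 to 1.20. Counting errors cover counting only.

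Foxa1/2cKO was compared with control with limma 3.58.1 (R 4.3.3) on log2(FPKM + 1), with a mean-variance trend, for the 10776 genes that reached 1 FPKM in 2 or more samples, two-sided, with Benjamini-Hochberg adjustment at 0.05. This scale understates the change of low genes. The smallest two-sided p of an exact permutation test in this design is 0.333. P-values measure only the spread between these samples. On data simulated for this comparison with 10776 genes, limma called 122 of 200 changed genes and 7 unchanged ones, and limma-voom called 168 and 0. The changed genes had median limma log2 fold changes of 0.92 and -0.90, a size that none of the 47 genes reached. Noise was drawn for each gene on its own, without the shift that Foxa1/2cKO 2 showed over many genes. These counts therefore do not tell how often changes of the size seen in the 47 genes would be called.

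The 47 genes and all lists (7 roles, other ribosome biogenesis genes, Myc network factors, Myc target genes outside the nucleolus and 9 marker lists) were chosen with earlier results of these data known. Values in every sample are given for *Myc*, *Max*, genes with an unadjusted p under 0.05, the 6 largest log2 fold changes in each direction, and the highest and lowest gene of each role, 24 genes in all. From each of the 3 lists outside the set, 2 genes per direction with the smallest p are named, and 5 genes of the set and 5 of all genes most like *Myc*. Other genes were named after their values were seen. Of the marker lists, dissociation stress genes summed to 152 to 178 FPKM. TCR response genes summed to 1879 and 1736 FPKM in the controls, 1624 FPKM in Foxa1/2cKO 1 and 2091 FPKM in Foxa1/2cKO 2.

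Alternatives were a pseudocount of 0.1, no filter, a minimum of 5 FPKM, upper-quartile scaling, the replicate number as a block, a loess fit that removed transcript length (alone and with the block), limma-voom on recovered reads, leaving out each sample and, chosen after seeing the data, scaling to all recovered reads. Python 3.11.15 with pandas 2.3.3, numpy 2.4.6 and matplotlib 3.10.9 made tables and figures. Promoter sequences are from RefSeq, and gene positions and shared 50-base stretches from an annotation of the same assembly. No protein sequences were used here.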

Additional observations from a re-analysis of the deposited data

How the results depend on the processing

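Each result was recomputed with 12 other settings chosen at the start and with 1 chosen after seeing the data, scaling to all recovered reads. Among the 24 genes of the set named by the rule, 14 kept their direction under all 13. The cause was not tested. The fit had 2 samples a group, with 2 residual and 2.69 prior degrees of freedom. The non-overlap count depends only on the samples and the scaling and was recomputed for those.

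The replicate numbers are shared between groups, but whether samples with the same number were sorted together is not given in the sources used here, where each sort is said to have held 2 mice of each genotype. The correlation across genes of replicate 1 minus replicate 2 between the groups was -0.0587. The summed B cell and myeloid markers were higher in replicate 1 than in replicate 2 of both groups. With the replicate block, the count of the 47 genes with an unadjusted p under 0.05 became 1 (from 3, where 3.51% of all genes tested passed), the count of the other ribosome biogenesis genes 1 (from 4, also with the transcript length correction), and with the length correction and the block that of the Myc target genes 1 (from 3). No adjusted call among the lists was changed by the block.

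With scaling to all recovered reads, the unadjusted counts were 6 of the 47 genes, all lower (2.97% of all genes tested were lower), and 7 of the other ribosome biogenesis genes, whose median became -0.050, and the median of RNA polymerase I genes became -0.085 and the value of *Nop10* -0.0063. With the transcript length correction, with or without the block, the median of RNA polymerase I genes was -0.029 and that of the other ribosome biogenesis genes 0.0090. The median of large subunit processing was then 0.013 (from -0.018) and that of the Myc network factors -0.0055 (from 0.068). The value of *Polr1e* was 0.0056. Upper-quartile scaling gave -0.028 for the other ribosome biogenesis genes. The unadjusted count of Myc network factors was 1 (from 0) with a pseudocount of 0.1, no filter, a minimum of 5 FPKM and limma-voom.

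Leaving out each sample in turn, the lone sample being assumed to vary like the other group, gave 0 to 13 of the 47 genes past the adjusted threshold and 0 to 21 past the unadjusted one, 29 to 44 without overlap (51.8% to 85.9% of all genes tested), and a median of -0.12 to -0.050. The unadjusted counts were 0 to 35 for the other ribosome biogenesis genes (median -0.027 to 0.0069), 0 to 6 for the Myc network factors and 0 to 27 for the Myc target genes. The share of all genes tested past the unadjusted threshold also changed with the sample left out and was largest without Foxa1/2cKO 1. The counts alone therefore do not tell whether a list differs from all genes tested. Medians by role were -0.58 to -0.060 for *Myc* and *Max*, -0.48 to -0.092 for the box C/D and -0.23 to -0.0092 for the box H/ACA genes. They were -0.28 to -0.030 for the nucleolar proteins and -0.12 to 0.0091 for small subunit processing. For large subunit processing they were -0.056 to 0.050 and for RNA polymerase I -0.072 to -0.018. The highest counts came without Foxa1/2cKO 1, where 1339 of all genes tested were higher and 1220 lower at the adjusted threshold, against 5 and 14 without Foxa1/2cKO 2.

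Values that changed sign in these ranges were those of *Max* (-0.084 to 0.16), *Npm1* (-0.53 to 0.042), *Nop14* (-0.00073 to 0.10), *Nop10* (-0.083 to 0.14), *Polr1e* (-0.11 to 0.066), *Ubtf* (-0.24 to 0.091), *Wdr43* (-0.21 to 0.11), *Rrp1* (-0.23 to 0.14), *Rrp12* (-0.12 to 0.018) and *Gnl3* (-0.28 to 0.045).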
